A study of Mus musculus with 12 samples.

Results

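Vsnl1, Slc17a7, Lin7a, Stard10, Ccdc92 and Fxyd6 are 6 of the 26190 genes measured in mouse embryonic hearts and heart organoids (HOs), and they were chosen by a high level in atria and a low level in ventricles of embryonic hearts. The choice used the embryonic libraries, and the embryonic values are a description without a test. The rule of choice did not use the HO libraries, though earlier results of these data were known when the genes were chosen. The difference between the HO parts was tested. The rule has no threshold, and all 6 genes passed the low-count filter in each comparison.

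The 12 RNA-seq libraries fell into 4 groups of 3. Atria and ventricles came from hearts at E11.5 (E11.5H). Atrium-like and ventricle-like parts were cut by surgery from HOs after 13 days of culture. HOs are beating structures that form from embryoid bodies of mouse embryonic stem cells (ESCs) in medium with FGF4 on a gel of laminin and entactin. In the later days of culture the methods also add BMP4, LIF and BIO, a Wnt activator, to the medium. The labels give the strain C57BL/6 for every group and no genetic change in any of them. The methods name wild-type ESC lines from C57BL/6 and from a hybrid of C57BL/6 and JF1, and they do not name the line behind each HO library. The HO libraries are described as biological replicates, and nothing in the sources used here says whether the embryonic libraries came from separate litters, so p-values measure only the spread between these libraries.

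The 6 genes belong to different families. Vsnl1 encodes visinin-like protein, a calcium-binding protein of the neuronal calcium sensor family that moves to membranes when calcium is bound. Slc17a7 encodes the transporter that loads glutamate into synaptic vesicles of excitatory neurons, and Lin7a encodes a small scaffold protein with a PDZ domain that holds receptors and channels at cell junctions and synapses. Stard10 encodes a START domain protein that carries phospholipids between membranes and is abundant in liver. Ccdc92 encodes a coiled-coil protein found at centrioles. Fxyd6 encodes a small membrane protein that modulates the Na/K-ATPase, the pump that restores the sodium and potassium gradients after each beat. Atrial cardiomyocytes, in which working muscle and the cells around the sinus node lie side by side, use calcium sensing, ion transport and membrane traffic for secretion and pacemaking as well as for contraction.

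The bases just before the start of a gene hold part of its promoter. They are shown for Slc17a7, Lin7a and Stard10, which were high together in atria and whose RefSeq start is the start in the authors' table. Each sequence covers the 250 bases before the start in RefSeq for GRCm38.p6, written 5′ to 3′ on the strand of the gene. Capitals mark a GATA site.
Slc17a7 (chr7:45163671-45163920, plus strand): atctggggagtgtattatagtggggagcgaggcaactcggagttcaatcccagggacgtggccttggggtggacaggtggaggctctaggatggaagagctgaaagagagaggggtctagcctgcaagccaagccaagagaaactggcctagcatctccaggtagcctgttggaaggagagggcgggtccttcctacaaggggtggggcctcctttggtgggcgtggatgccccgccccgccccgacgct
Lin7a (chr10:107271581-107271830, plus strand): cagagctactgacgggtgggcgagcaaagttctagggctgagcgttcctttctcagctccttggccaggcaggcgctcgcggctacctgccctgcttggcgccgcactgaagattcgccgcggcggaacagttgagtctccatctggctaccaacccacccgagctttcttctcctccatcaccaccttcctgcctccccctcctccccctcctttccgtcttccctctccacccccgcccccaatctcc
Stard10 (chr7:101316836-101317085, plus strand): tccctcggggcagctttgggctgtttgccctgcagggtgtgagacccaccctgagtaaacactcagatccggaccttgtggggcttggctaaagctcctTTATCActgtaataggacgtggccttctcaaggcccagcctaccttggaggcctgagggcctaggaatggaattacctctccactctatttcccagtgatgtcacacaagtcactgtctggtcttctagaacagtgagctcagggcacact
Such windows of all 6 genes and of 32841 RefSeq promoters were searched on both strands for 3 kinds of site. The GATA site (AGATAA, or the same with T as its first base, G as its last base or both) was in 1 of the 6 windows and in 26.5% of all promoters. The match was in Stard10, where a GATA site on the minus strand began 151 bases before the start. The T-box half-site AGGTGT was in 0 of the 6 windows and in 11.8% of all promoters. The nuclear receptor half-site (AGGTCA, or the same with G as its first base) was in 0 of the 6 windows and in 23.8% of all promoters. These letters were not in these windows, which says nothing of sites elsewhere. The windows of Slc17a7, Lin7a and Stard10 were 61.2%, 63.6% and 54.4% G and C, against a median of 52.4% over all promoters. Those of Vsnl1, Ccdc92 and Fxyd6 were 58.0%, 60.4% and 50.4%, so that of Fxyd6 was below the median.

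The labels of the chambers were compared with marker lists before the genes were read. In E11.5H, the mean log2 CPM (fragments scaled to library size) of 10 atrial genes was 7.74 to 7.80 in atria and 5.55 to 5.78 in ventricles, and that of 6 ventricular genes was 4.12 to 5.38 in atria and 9.33 to 9.49 in ventricles. Both lists followed the embryonic labels. In HOs, the atrial list ran from 2.08 to 3.49 in the libraries labelled atrium-like and from 4.06 to 4.69 in those labelled ventricle-like, so the groups stood apart in the order opposite to their names. The ventricular list overlapped, from 1.46 to 4.83 and from 3.85 to 6.05 in the same order. Nppa, the atrial natriuretic peptide gene, was at 0.528 to 8.75 FPKM (fragments scaled to transcript length and library size) in HOs. In E11.5H it was at 1925 to 2810 FPKM in atria and at 2597 to 3058 FPKM in ventricles, so it did not mark the atria there. The atrial list thus went against the name of the atrium-like parts. The list of 14 pan-cardiomyocyte genes was lower in them too, at 4.98 to 6.49 against 6.59 to 8.16 in ventricle-like parts. Whether the atrial list was lower beyond that was not tested, and the names are used here for the dissected pieces only. Fragments of 14 pan-cardiomyocyte genes made up 24320 to 31570 CPM in E11.5H, 952.1 to 2452 CPM in atrium-like parts and 3284 to 7653 CPM in ventricle-like parts. Fewer cardiomyocytes and less RNA per cardiomyocyte cannot be told apart in bulk RNA. Libraries held 25943640 to 30540993 fragments on genes in E11.5H and 23971258 to 29230400 in HOs. Replicate 2 of both HO parts stood apart in skeletal muscle and endothelial genes and had the highest neural levels. The main fitted differences of the 6 genes that use these libraries are also given without them. Medians over genes and the group values of other genes in HOs use all HO libraries and are not given without them.

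In the embryo all 6 genes were higher in every atrial than in every ventricular library. Among all genes tested, groups without overlap and higher in atria made up 15.6% of 14536, and 2.92% were called higher in atria (adjusted p under 0.05 and a log2 fold change over 1). On the log2 scale the atrial excess ran from 1.05 for Fxyd6 to 7.81 for Slc17a7, with a median of 4.83 over the 6 genes and 0.01 over all genes tested. Vsnl1, Slc17a7 and Lin7a were close to absent from ventricles. Stard10 was lower in ventricles but present, and Ccdc92 and Fxyd6 were well expressed in both chambers. These values chose the genes and support nothing.

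**Figure D1:**
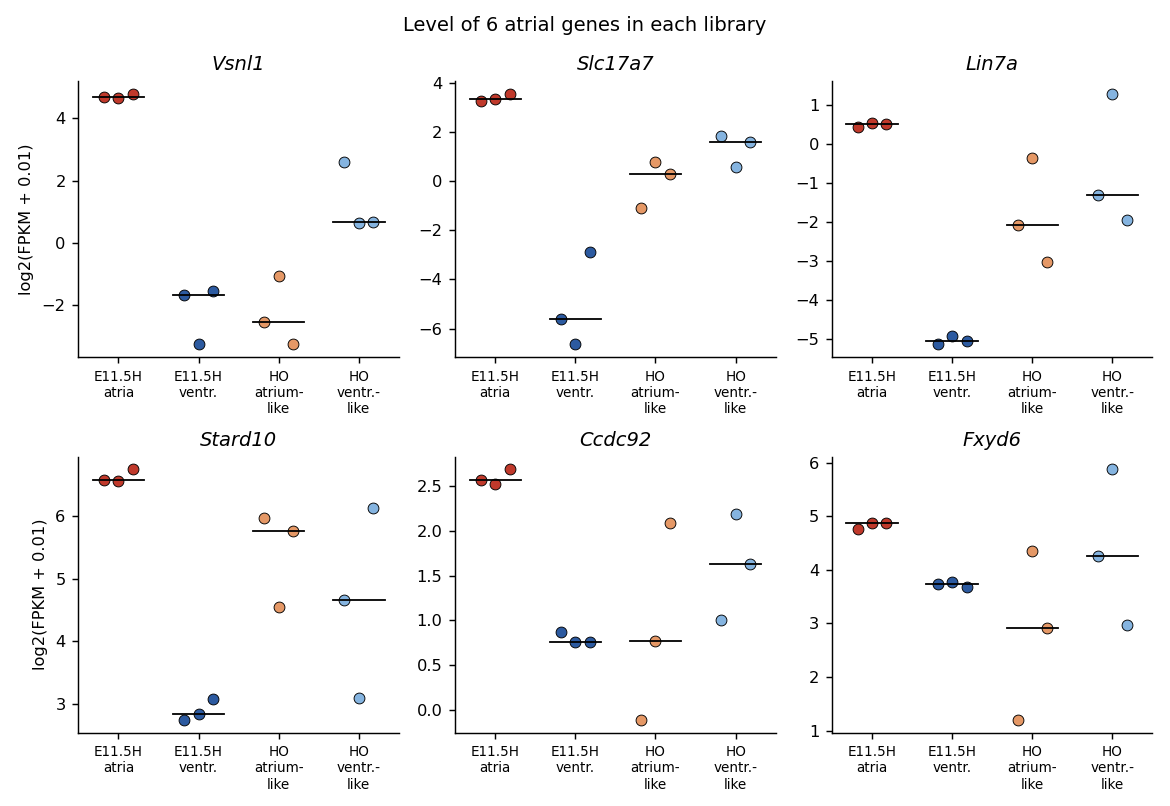
FPKM of the 6 genes in each of the 12 libraries, drawn as log2(FPKM + 0.01), with 1 panel per gene, the 4 groups side by side, replicates 1 to 3 from left to right within a group and a bar at the group median. The E11.5H atria lie above the E11.5H ventricles in every panel, while the HO parts overlap in all panels but that of Vsnl1, where the atrium-like libraries lie below the ventricle-like ones.

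Between the HO parts none of the 6 genes was called by edgeR's quasi-likelihood test, and neither was any of the 15703 genes tested (0%). The lowest adjusted p over all genes was 0.750. At an unadjusted p under 0.05 there were 889 genes (5.66%), of which 1 was a member, Vsnl1. DESeq2 called 56 of all genes, Vsnl1 among them, and limma on log2(FPKM + 1) called 0. The fitted difference of atrium-like against ventricle-like parts was below 0 for 5 of the 6 genes, in contrast to the embryo, and above 0 for Stard10. Its median over the 6 genes was -1.26, against -0.03 over all genes tested.

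**Figure D2:**
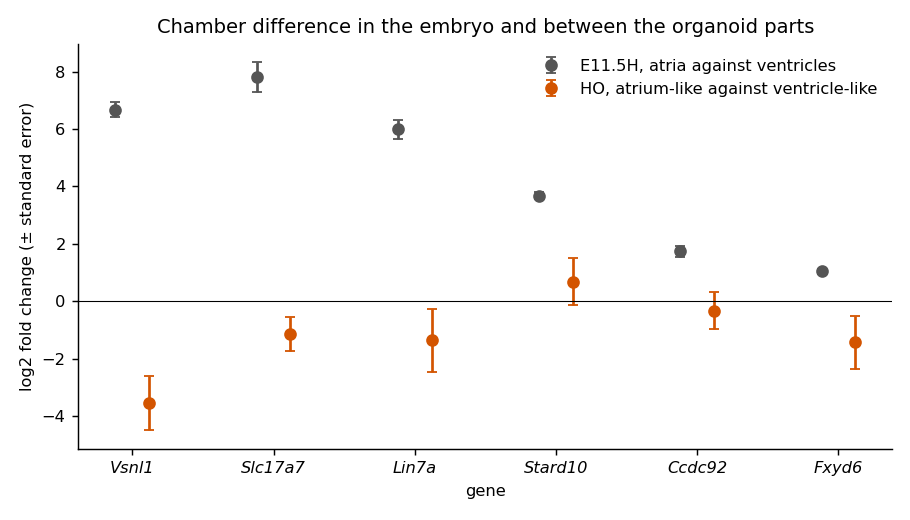
Fitted log2 fold change of each gene with its standard error, for atria over ventricles of E11.5H (grey) and atrium-like over ventricle-like HO parts (orange), 3 libraries per group. The embryonic values lie between 1.05 and 7.81, and the HO values lie below 0 for all genes but Stard10, with none called by edgeR.

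Vsnl1 (chromosome 12 from 11325245 to 11436649 of GRCm38, minus strand), the calcium sensor, had 25.7, 25.3 and 27.7 FPKM in atria of E11.5H and 0.306, 0.0960 and 0.332 FPKM in ventricles, from 1652 to 1764 and 6 to 19 fragments. The atrial mean of 26.3 ± 1.27 FPKM stood against 0.245 ± 0.130 FPKM (SD, n = 3 each), which was 102.3-fold higher or 6.68 on the log2 scale (standard error 0.27). The chambers were far apart, and the libraries of each chamber lay close to each other or, in ventricles, near the lower limit of counting.
In HOs the atrium-like parts had 0.162, 0.472 and 0.0952 FPKM and the ventricle-like parts 6.09, 1.56 and 1.59 FPKM. The 3 atrium-like libraries were all below the 3 ventricle-like libraries, the reverse of the order in the embryo, and such groups made up 6.04% of all genes tested in HOs. The log2 fold change was -3.56 (standard error 0.94, 95% interval -5.86 to -1.26, unadjusted p = 0.00890 and adjusted p = 0.750 by edgeR's quasi-likelihood test). Vsnl1 therefore did not pass in edgeR, while DESeq2 gave an adjusted p of 0.0423 for a log2 fold change of -3.55, and limma on log2(FPKM + 1) an adjusted p of 0.658. Ventricle-like replicate 1 was the highest HO library, and leaving it out gave -2.57. Without replicate 2 of both parts it was -4.65 (edgeR adjusted p = 0.594).
Against the matching chambers, atrium-like parts held 97.5-fold less Vsnl1 than atria did (log2 fold change -6.61, standard error 0.57, and -7.41 without atrium-like replicate 2), and it was 11.8-fold higher in ventricle-like parts than in ventricles (log2 fold change 3.56, standard error 0.86, 2.56 without ventricle-like replicate 1 and 3.89 without replicate 2). In order of mean level, atria of E11.5H came first and ventricle-like parts next. Ventricles of E11.5H and atrium-like parts came last, and their libraries overlapped.

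Slc17a7 (chromosome 7 from 45163921 to 45176139, plus strand), the vesicular glutamate transporter, had 9.68, 10.2 and 11.9 FPKM in atria of E11.5H and 0.0106, 0 and 0.127 FPKM in ventricles. The ventricular values stand for 1, 0 and 11 fragments, where a count of 0 allows up to 3. The log2 fold change of 7.81 (standard error 0.52) rested on ventricular replicate 3, and it was 10.61 without that library and 7.20 without replicate 2. Slc17a7 thus had next to no fragments in ventricles, and the size of its difference is poorly fixed. The gene contains the microRNA gene Mir7055 on the same strand.
In HOs the atrium-like parts had 0.464, 1.74 and 1.20 FPKM and the ventricle-like parts 3.63, 1.49 and 2.99 FPKM. The parts overlapped through atrium-like replicate 2 and ventricle-like replicate 2. The log2 fold change was -1.15 (standard error 0.59, 95% interval -2.59 to 0.28, edgeR adjusted p = 0.750), and without replicate 2 of both parts it was -1.81. By mean level the groups ran from atria over ventricle-like and atrium-like parts to ventricles. All 6 HO libraries of Slc17a7 lay between the embryonic chambers, above every ventricular and below every atrial library. Atrium-like parts were 8.59-fold lower than atria (log2 fold change -3.10, standard error 0.43, and -3.45 without atrium-like replicate 2), and ventricle-like parts had a log2 fold change of 5.76 (standard error 1.36) over ventricles, which was 8.61 without ventricular replicate 3 of E11.5H, 5.15 without ventricular replicate 2 and 6.08 without ventricle-like replicate 2.

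Lin7a (chromosome 10 from 107271831 to 107425143, plus strand), the junction scaffold, had 1.33, 1.44 and 1.40 FPKM in atria of E11.5H and 0.0183, 0.0227 and 0.0198 FPKM in ventricles. The group means were 1.39 ± 0.0547 and 0.0202 ± 0.00224 FPKM (SD, n = 3 each), 63.7-fold apart or 5.99 on the log2 scale (standard error 0.34). The level was low even in atria, but its transcript is long, and 310 to 331.5 fragments per atrial library stood against 4 to 5 per ventricular library.
In HOs the atrium-like parts had 0.225, 0.764 and 0.112 FPKM and the ventricle-like parts 0.393, 2.43 and 0.248 FPKM. Replicate 2 was the highest library of each part, and ventricle-like replicate 2 lay above every atrial library of E11.5H. The log2 fold change was -1.37 (standard error 1.09, 95% interval -4.02 to 1.28, edgeR adjusted p = 0.771). Among libraries of the same number the atrium-like one was the lower each time, though the numbers were not taken as pairs. The difference turned to 0.27 without ventricle-like replicate 2 (edgeR adjusted p = 0.9996) and was -0.68 without replicate 2 of both parts. Every atrium-like library was below every atrial library, at a log2 fold change of -1.82 (standard error 0.67), or 3.52-fold lower, and -2.76 without atrium-like replicate 2. Every HO library was above every ventricular library, and ventricle-like parts differed from ventricles by 5.51 on the log2 scale (standard error 1.09), or by 3.88 without ventricle-like replicate 2. The order of means was that of Slc17a7, but atria and ventricle-like parts overlapped, as did the HO parts.

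Stard10 (chromosome 7 from 101317086 to 101346626, plus strand), the phospholipid carrier, was the most abundant of the 6 per length, with 95.7, 95 and 107.9 FPKM in atria of E11.5H and 6.67, 7.11 and 8.48 FPKM in ventricles. The means of 99.5 ± 7.27 and 7.42 ± 0.943 FPKM (SD, n = 3 each) gave a log2 fold change of 3.67 (standard error 0.12), or 12.8-fold. Fragments could be shared with the antisense gene Gm20476 and the pseudogene Gm45344, which lie within Stard10, since the use of strand in counting was not named.
In HOs the atrium-like parts had 62.8, 23.5 and 54.5 FPKM and the ventricle-like parts 25.2, 8.56 and 70.1 FPKM. The parts overlapped, and the highest HO library was ventricle-like replicate 3. By mean level atrium-like parts followed the atria, with ventricle-like parts next and ventricles last. Stard10 was the only member with a fitted value above 0 between the parts, which was 0.68 on the log2 scale (standard error 0.81, 95% interval -1.30 to 2.65, edgeR adjusted p = 0.836). It was 1.70 without ventricle-like replicate 3 and 0.53 without replicate 2 of both parts. Atrium-like parts were 1.81-fold lower than atria (log2 fold change -0.86, standard error 0.42), at -1.24 without atrium-like replicate 1 and -0.50 without replicate 2. Ventricle-like parts were 4.38-fold above ventricles (log2 fold change 2.13, standard error 0.72, 1.08 without ventricle-like replicate 3 and 2.61 without replicate 2).

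Ccdc92 (chromosome 5 from 124834432 to 124862221, minus strand), the centriole protein gene, had 5.94, 5.75 and 6.43 FPKM in atria of E11.5H and 1.81, 1.68 and 1.68 FPKM in ventricles, where it was 3.34-fold lower (log2 fold change of atria over ventricles 1.74, standard error 0.18). The atrium-like parts of HOs had 0.914, 1.70 and 4.24 FPKM and the ventricle-like parts 1.99, 4.54 and 3.09 FPKM. The ranges overlapped widely, all 6 HO libraries were below every atrial library, and atrium-like parts also overlapped with ventricles of E11.5H.
Between the parts the log2 fold change was -0.33 (standard error 0.65, 95% interval -1.91 to 1.26, edgeR adjusted p = 0.900), it was 0.18 without replicate 2 of both parts, and it ranged from -1.15 to -0.0022 when single libraries were left out. Atrium-like parts were 2.37-fold lower than atria (log2 fold change -1.25, standard error 0.55), at -2.10 without atrium-like replicate 3, -0.91 without replicate 1 and -1.03 without replicate 2. Ventricle-like parts were 1.74-fold higher than ventricles without overlap (log2 fold change 0.80, standard error 0.39, and 0.49 without ventricle-like replicate 2).

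Fxyd6 (chromosome 9 from 45370185 to 45396159, plus strand), the pump regulator, had 27.3, 29.4 and 29.4 FPKM in atria of E11.5H and 13.4, 13.6 and 12.8 FPKM in ventricles, the smallest atrial difference of the 6, at 2.07-fold (1.05 on the log2 scale, standard error 0.09). Its HO libraries lay far apart, with 2.28, 20.4 and 7.53 FPKM in the atrium-like pieces and 19.2, 58.7 and 7.83 FPKM in the ventricle-like pieces. Replicate 2 was the highest of each part, and ventricle-like replicate 2 lay above every embryonic library.
The log2 fold change between the parts was -1.43 (standard error 0.93, 95% interval -3.69 to 0.82, edgeR adjusted p = 0.750), -0.39 without ventricle-like replicate 2 and -1.29 without replicate 2 of both parts. Against atria, atrium-like parts were 2.70-fold lower (log2 fold change -1.43, standard error 0.64), at -2.34 without atrium-like replicate 2 and -1.01 without replicate 1. Ventricle-like parts overlapped with ventricles, at 1.003 on the log2 scale (standard error 0.66) and -0.03 without ventricle-like replicate 2.

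All 6 were lower in every atrium-like than in every atrial library, where 27.0% of 15418 genes tested had groups without overlap in that direction. Of the 6, 5 had a log2 fold change under -1, against 16.6% of all genes, and the median was -1.62 against 0.06 over all genes. All 6 fitted values were above 0 in ventricle-like parts against ventricles, 5 were over 1 against 22.3% of 15094 genes, and 4 (Vsnl1, Slc17a7, Lin7a and Ccdc92) had groups without overlap against 26.0%. Stard10 overlapped in CPM after TMM normalization, which corrects library size for composition and was used for all statements on overlap, but not in FPKM, where the nearest libraries had 8.56 and 8.48. Both comparisons use the embryonic libraries that chose the genes, and a gene picked for high atrial and low ventricular values is prone to these directions, so they carry no test.

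Because HOs held fewer fragments of cardiomyocyte genes, each gene was also expressed per 1000 fragments of the 14 pan-cardiomyocyte genes. On this scale Slc17a7 ran from 1.13 to 1.63 in atria of E11.5H, 0 to 0.0139 in ventricles, 1.71 to 2.56 in HO atrium-like libraries and 1.36 to 2.57 in HO ventricle-like libraries. Per cardiomyocyte fragment the HO libraries of Slc17a7 were thus at or above the atrial level and overlapped between the parts. Vsnl1 ran from 1.98 to 2.50 in atria, 0.00672 to 0.0240 in ventricles, 0.0912 to 0.459 in HO atrium-like and 0.476 to 2.85 in HO ventricle-like libraries, so its atrium-like libraries remained below the atria on both scales. Stard10 ran from 7.07 to 9.36 in atria, 0.464 to 0.590 in ventricles, 21.96 to 146.4 in HO atrium-like and 5.67 to 20.1 in HO ventricle-like libraries. Its atrium-like libraries were above every ventricle-like library and every atrial library on this scale. Lin7a, Ccdc92 and Fxyd6 had atrium-like medians of 1.93, 2.59 and 6.67 against atrial medians of 0.445, 0.613 and 2.46.
With libraries scaled to the pan-cardiomyocyte genes in the fit, the median of all genes moved by 3.83 between atrium-like parts and atria, by 2.86 between ventricle-like parts and ventricles and by 1.32 between the HO parts, all on the log2 scale. Between atrium-like parts and atria the log2 fold change of Vsnl1 was then -2.87, while the other 5 were above 0, from 0.53 for Slc17a7 to 3.14 for Stard10, all below that shift. Between the HO parts Slc17a7 turned to 0.13 and Ccdc92 to 0.67 under this scaling, with edgeR adjusted p of 0.909 and 0.554. Stard10 moved to 2.56 and Vsnl1 to -2.22 (edgeR adjusted p = 0.0842 and 0.183), while Lin7a and Fxyd6 were at -0.47 and -0.67.

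**Figure D3:**
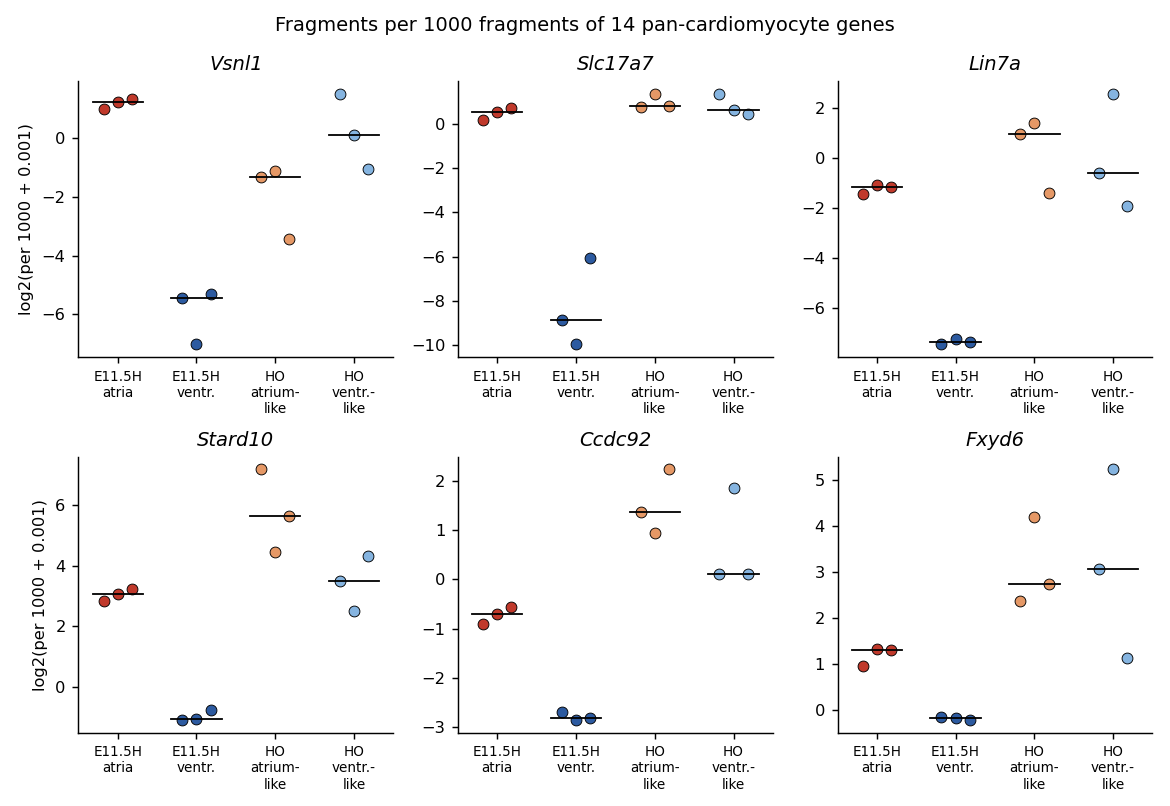
Fragments of each gene per 1000 fragments of the 14 pan-cardiomyocyte genes in each library, drawn as log2(ratio + 0.001), with panels, groups and median bars as in the plot of FPKM. Slc17a7 in HOs lies at or above the E11.5H atria, Vsnl1 in atrium-like parts stays below them, and Stard10 in atrium-like parts lies above all other groups.

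Markers of other cell types differed strongly among the HO libraries and moved with some of the genes. The 14 neural genes had a mean log2 CPM of 0.24 to 0.76 in atria of E11.5H and -0.48 to -0.28 in ventricles, low in both and without overlap. In HOs the list was at 5.39 in ventricle-like replicate 2, 3.57 in atrium-like replicate 2 and 2.89 in ventricle-like replicate 1, and these were also the 3 highest HO libraries of both Lin7a and Fxyd6, in the same order. In atrium-like replicate 1, atrium-like replicate 3 and ventricle-like replicate 3 the list was at -3.06 to -0.82, and 7, 3 and 2 of its 14 genes were at 0. The part of neural RNA in the values of Lin7a and Fxyd6 was not tested.
The 12 hepatocyte and visceral endoderm genes were at -2.24 to -0.70 in E11.5H, and at 9.15, 8.80 and 8.40 in atrium-like replicate 1, atrium-like replicate 3 and ventricle-like replicate 3. Those were the 3 highest HO libraries of Stard10. The list was lowest, at 0.73, in ventricle-like replicate 2, which was also the lowest for Stard10, and 12 gut epithelium genes were lowest (3.01) and highest (7.74 to 8.29) in the same libraries. Their part in the Stard10 values of HOs was not tested. Atria of E11.5H, where the lists were at -1.44 to -0.70 and -0.69 to 0.42, held more Stard10 than any HO library.
The 6 sinus node genes were at 5.17 to 5.41 in atria of E11.5H and 2.52 to 3.01 in ventricles. In HO atrium-like libraries they were at 2.36 to 3.56 and in HO ventricle-like libraries at 4.35 to 4.76, without overlap. Vsnl1 and the atrial list stood apart in the same order, and so did the pan-cardiomyocyte list, at 4.98 to 6.49 and 6.59 to 8.16. The order of the 3 atrium-like libraries in Slc17a7 was that of the sinus node list, and that of the 3 ventricle-like libraries was not. The atrial list had the order of Slc17a7 in both parts. Its values were 2.08, 3.49 and 3.33 in atrium-like replicates 1 to 3 and 4.69, 4.06 and 4.43 in ventricle-like replicates 1 to 3. The neural and skeletal muscle lists also had the order of Slc17a7 in the atrium-like libraries, so that order was not particular to the sinus node list. The part of sinus node cells, atrial cells or cardiomyocyte content in the HO values of Vsnl1 and Slc17a7 was not tested.

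**Figure D4:**
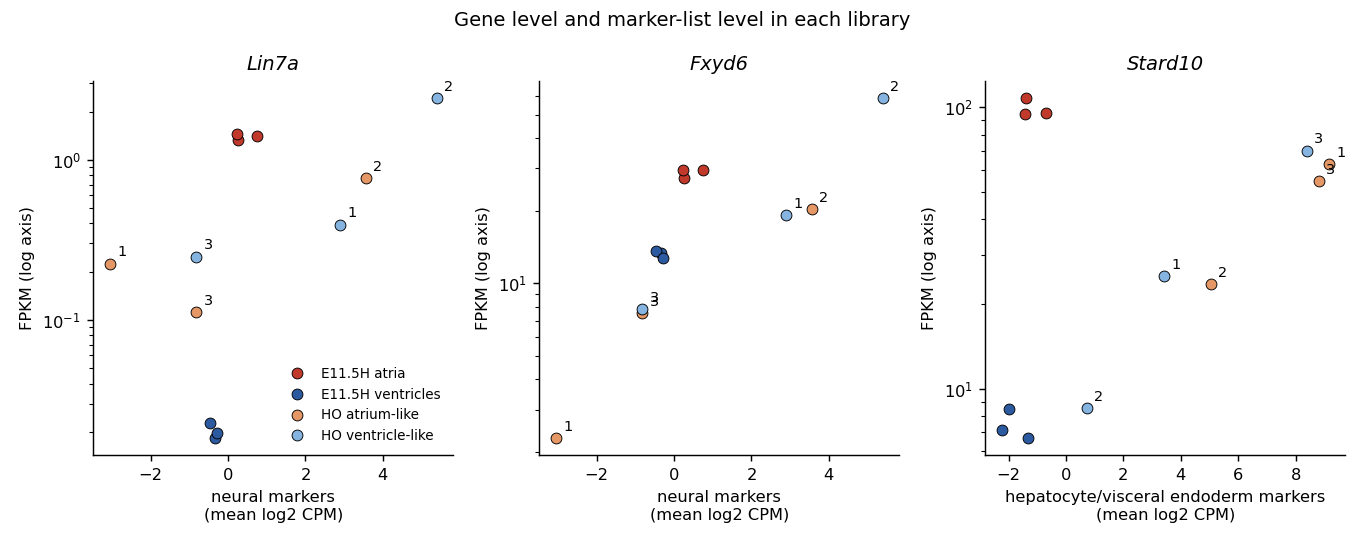
FPKM on a log axis against the mean log2 CPM of a marker list in the 12 libraries, for Lin7a and Fxyd6 with the neural list and Stard10 with the hepatocyte and visceral endoderm list. Numbers beside points are HO replicates. Among HO libraries the gene and the list are high in the same libraries, while the 6 E11.5H libraries are all low in the lists.

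Relatives and partners of the 6 genes were compared from 7 lists of 80 genes. In E11.5H, 63 were tested, 2 were higher and 3 were lower in atria, where 2.92% of all genes tested were called higher, 1.97% lower and 4.90% in either direction, and the median log2 fold change of -0.02 stood against 0.01 over all genes. In HOs, 0 of 73 were called by edgeR, as were 0 of all 15703 genes tested. At an unadjusted p under 0.05 edgeR had 2 of the 73, Slc38a1 and Gria2, against 5.66% of all genes. By limma on log2(FPKM + 1) 0 were called. DESeq2 called 1, the glutamine transporter gene Slc38a1, where it called 56 of all genes. DESeq2 and limma had 7 and 4 of the 73 at an unadjusted p under 0.05, with Slc38a1 and without Gria2. The shares over all genes for these 2 tests were not taken. Both names were chosen after their values were seen.

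Of 12 neuronal calcium sensor genes related to Vsnl1, 10 were tested in E11.5H, and 2 were called higher and 2 lower in atria. Kcnip1, whose product binds Kv potassium channels, had 1.07 ± 0.347 FPKM in atria against 0.0200 ± 0.0109 FPKM in ventricles (log2 fold change 5.60, standard error 0.64, edgeR adjusted p = 0.000338). Ncald, the neurocalcin delta gene, had 4.11 ± 1.06 and 1.40 ± 0.168 FPKM (log2 fold change 1.48, standard error 0.22, edgeR adjusted p = 0.00142). Both shared the atrial direction of Vsnl1. Guca1a, a guanylate cyclase activator of photoreceptors, was lower in atria, at 0.818 ± 0.507 against 3.46 ± 0.589 FPKM (log2 fold change -2.13, standard error 0.58, edgeR adjusted p = 0.0360). Hpcal4 had 0 fragments in every atrial library and 67, 47 and 14 in ventricles, so it was at least 14.8-fold lower in atria against 3 fragments per library (edgeR adjusted p = 0.00523). In HOs none of the 11 calcium sensor genes tested was called, and their median was -1.39 against -0.03 over all genes. Many of them are neuronal genes, and the neural list given above overlapped between the parts. It was at -3.06, 3.57 and -0.82 in atrium-like replicates 1 to 3 and at 2.89, 5.39 and -0.82 in ventricle-like replicates 1 to 3. The part of neural RNA in these values was not tested.
Of 8 genes of the SLC17 family, 2 passed the filter in E11.5H and none was called. Slc17a5, the lysosomal sialic acid transporter gene and the highest by mean CPM, had 2.43 ± 0.768 FPKM in atria against 2.36 ± 0.352 FPKM in ventricles. Slc17a6, which encodes the other main vesicular glutamate transporter, had 0 FPKM in both chambers, and in HOs it ran from 0 to 0.234 FPKM in the atrium-like and from 0.0420 to 5.65 FPKM in the ventricle-like pieces. Of 15 genes of glutamate synthesis, uptake and reception, 13 were tested and none was called, with Slc38a2 the highest by mean CPM, at 46.8 ± 4.76 and 50.9 ± 5.09 FPKM (log2 fold change -0.19, standard error 0.10, edgeR adjusted p = 0.244).
Of 12 paralogs and partners of Lin7a, 10 were tested and none was called. The paralog Lin7c, the highest of them by mean CPM, was at 18.2 ± 2.40 FPKM in atria, against 16.9 ± 1.14 FPKM in ventricles (log2 fold change 0.04, standard error 0.11, edgeR adjusted p = 0.861), above the level of Lin7a in both. In HOs Lin7c was at 20.9 ± 1.68 and 26.9 ± 3.33 FPKM.
Of 14 START domain genes, 13 were tested and 1 was called. Acot11, an acyl-CoA thioesterase gene, was lower in atria, at 0.977 ± 0.173 against 2.33 ± 0.269 FPKM (log2 fold change -1.32, standard error 0.21, edgeR adjusted p = 0.00226), opposite to Stard10. Of 12 FXYD and Na/K-ATPase genes, 8 were tested and none was called, with a median log2 fold change of -0.21. Of 7 genes around Ccdc92 and the centriole appendages, all were tested and none was called, with Fbf1 the highest by mean CPM, at 4.48 ± 0.519 and 4.59 ± 1.83 FPKM (edgeR adjusted p = 0.843).

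**Figure D5:**
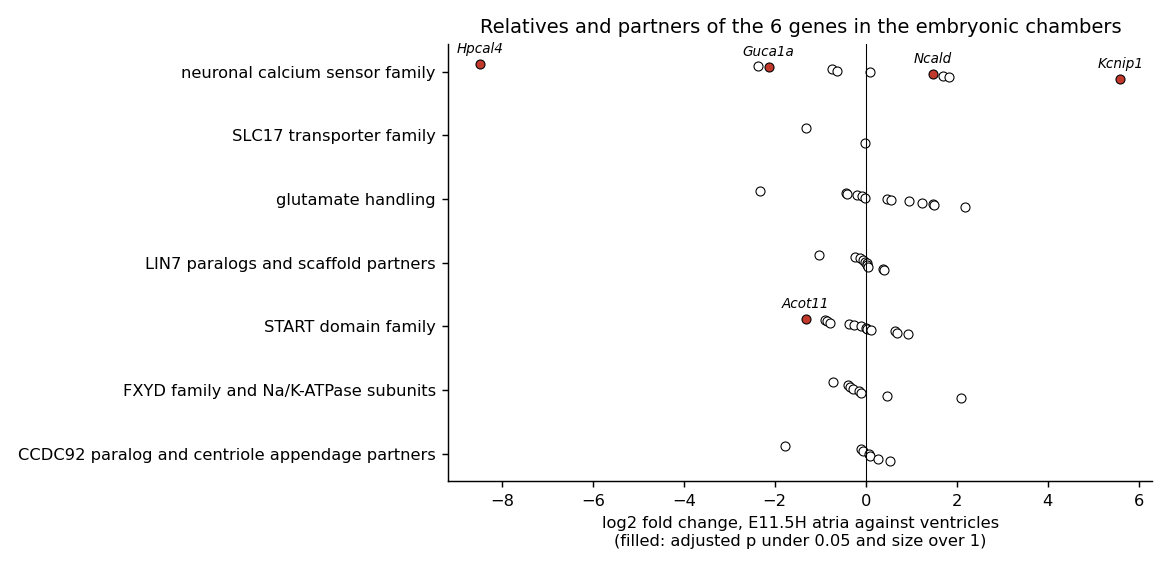
Log2 fold change of atria against ventricles of E11.5H for the tested relatives and partners of the 6 genes, 1 point per gene and 1 line per list. Filled and named points were called (edgeR adjusted p under 0.05 and a size over 1), namely Kcnip1 and Ncald to the right and Hpcal4, Guca1a and Acot11 to the left, and the place of Hpcal4 depends on its atrial counts of 0.

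The genes whose pattern was most like that of each member were found by Pearson's r of log2 CPM over the 12 libraries, among 14590 genes with a mean of at least 1 CPM. The points share 2 tissues and their composition, so r is a description. For Vsnl1 these were Zfp397 (r = 0.948), a zinc finger gene, and Cav1 (r = 0.945), which encodes a caveolar coat protein and had mean FPKM of 114.5, 7.57, 5.96 and 25.4 in atria, ventricles, atrium-like and ventricle-like parts. For Slc17a7 they were Shox2 (r = 0.949), a transcription factor gene of the sinus node and 1 of the 6 genes of that list, and 1810030O07Rik (r = 0.933). Shox2 had mean FPKM of 14.1, 0.0819, 0.794 and 2.63 in the same order of groups, like Slc17a7 close to absent from ventricles.
For Lin7a they were 1810030O07Rik (r = 0.933) and Lxn (r = 0.926), a carboxypeptidase inhibitor gene. Stard10 was nearest to Pcmtd2 (r = 0.933) and Zbed6 (r = 0.887), and Ccdc92 to 2 loci of the repeated gene Gm10409 (r = 0.943 and 0.932), whose fragments may be shared among copies. Fxyd6 was nearest to Necab2 (r = 0.982), which encodes a neuronal calcium-binding protein, and Mturn (r = 0.980), a gene of neural differentiation. Necab2 had mean FPKM of 2.81, 0.534, 0.637 and 2.39 in atria, ventricles, atrium-like and ventricle-like parts.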

How the data were processed

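Total RNA of dissected atria and ventricles of E11.5H and of atrium-like and ventricle-like parts of 13-day HOs was extracted with a Qiagen AllPrep micro kit, and the methods name Takara for library preparation and sequencing. The authors mapped reads to GRCm38/mm10 with STAR and deposited, per gene and library, estimated counts of fragments without normalization and FPKM values, which carry no correction for composition. For the version of STAR, the annotation, the tool that counted and whether strand was used, nothing is given in the sources used here. Of 314280 count values, 74827 were not whole, and all were rounded before testing.

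For the counts, R 4.3.3 and the quasi-likelihood test of edgeR 4.0.16 were used after TMM scaling, with low counts removed by filterByExpr (minimum 10), p adjusted by Benjamini-Hochberg over all genes tested, and each pair of groups in its own fit. Calls required an adjusted p under 0.05 together with a log2 fold change over 1 in size. Intervals are 95% t intervals of the fit. Groups were compared for overlap in TMM-scaled CPM. DESeq2 1.42.0 and limma 3.58.1 on log2(FPKM + 1) and log2(FPKM + 0.1), other size factors, no filter, all 12 libraries in 1 fit, scaling to pan-cardiomyocyte genes, a replicate block and the omission of single libraries were alternatives. Scripts were tested on simulated data. Python 3.11.15 with matplotlib 3.10.9 drew the figures. Overlapping genes came from GENCODE M21, and promoters from RefSeq for GRCm38.p6, where all 6 genes matched. The window of Vsnl1 overlaps the gene in the authors' table and is not shown.

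The 6 genes, the 7 family lists and the 10 marker lists (atrial, ventricular, sinus node, pan-cardiomyocyte, neural, endothelial, epicardial, hepatocyte and visceral endoderm, gut epithelium and skeletal muscle) were chosen with earlier results of these data known. A gene of the family lists was left out of them, and some results of single genes in them are not reported here. The text names all 6 genes, up to 3 called genes per direction of each family list or its gene of highest mean CPM where none was called, and the 2 genes most like each member. Marker lists were summarised as the mean log2 CPM with a prior count of 1. Replicates of no group agreed within sampling noise, so all 12 libraries were counted. A count of 0 allows up to 3 counts, which covers counting error only.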

Additional observations from a re-analysis of the deposited data

Results flagged for a closer look

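Vsnl1 had opposite chamber orders in the embryo and in HOs. In E11.5H every atrial library lay above every ventricular library, with a log2 fold change of 6.68, and in HOs the 3 atrium-like libraries were all below the 3 ventricle-like ones, at -3.56 on the log2 scale (edgeR adjusted p = 0.750). The difference between the embryonic and the HO contrast was not tested. The embryonic order was used to choose the gene. Groups of 3 libraries are too small to look for outlying values.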

How the results depend on the processing

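Limits. With 3 libraries per part and wide spread among HO libraries, edgeR called no gene between the parts, and the intervals of the 6 genes span several units on the log2 scale. Ventricular levels of Vsnl1, Slc17a7 and Lin7a in E11.5H rest on few fragments, so their fold changes are loosely fixed. Fragments of cardiomyocyte genes were fewer in HOs than in the embryo, and fewer cardiomyocytes cannot be told apart from less RNA per cardiomyocyte.

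Between the HO parts, the DESeq2 Wald test gave -3.55 for Vsnl1 with an adjusted p of 0.0423, and called 56 genes where edgeR called 0, among them 1 family gene, Slc38a1, where edgeR called 0. The cause was not tested. Scaling to pan-cardiomyocyte genes turned Slc17a7 to 0.13 and Ccdc92 to 0.67 between the parts. Between atrium-like parts and atria it turned Slc17a7 to 0.53, Lin7a to 1.95, Stard10 to 3.14, Ccdc92 to 2.34 and Fxyd6 to 2.13, so that 1 gene instead of 5 was under -1, by construction, since cardiomyocyte fragments were fewer in HOs. Without ventricle-like replicate 2, Lin7a between the parts turned to 0.27 and Fxyd6 in ventricle-like parts against ventricles to -0.034, the low end of its range up to 1.41 with single libraries left out. Leaving out replicate 2 of both HO parts, an alternative chosen after seeing the data, turned Ccdc92 to 0.18.

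In E11.5H, all 12 libraries in 1 fit called 0 instead of 5 family genes and 30 instead of 712 genes, and limma on log2(FPKM + 1) called 386. The shared fit takes the spread of HO libraries into the embryonic comparison by construction, and for limma the cause was not tested. When single libraries were left out, the difference between the HO parts ranged from -4.28 to -2.57 for Vsnl1, -1.47 to -0.84 for Slc17a7, -2.27 to 0.27 for Lin7a, 0.21 to 1.70 for Stard10, -1.15 to -0.0022 for Ccdc92 and -2.31 to -0.39 for Fxyd6. Called family genes of E11.5H ran from 4 to 7 and all called genes from 538 to 765, while no HO count left 0, and the number of genes under -1 in atrium-like parts was 5 each time, though not always the same 5, since without atrium-like replicate 1 Ccdc92 was at -0.91 and Stard10 at -1.24.

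The methods tell of HOs cut into both parts, but not whether a replicate number marks the parts of the same HO. Same-numbered deviations correlated at -0.031 to 0.005 in E11.5H and at 0.008, 0.594 and 0.351 in HOs, and not every library correlated best with its own number. Deviations from a mean of 3 libraries depend on each other, so these correlations cannot exclude pairing. The numbers were not taken as pairs, since no source ties them to the same HO. The replicate block gave 6 called family genes and 621 called genes in E11.5H and 0 and 0 in HOs. Its HO log2 fold changes were -3.48 for Vsnl1, -1.16 for Slc17a7, -1.03 for Lin7a, 0.996 for Stard10, -0.52 for Ccdc92 and -1.38 for Fxyd6. Their edgeR adjusted p ran from 0.541 for Vsnl1 to 0.756 for Ccdc92.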

Other observations

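Markers of other cell types in the same libraries are given as values. The 10 endothelial genes had a mean log2 CPM of 5.72 to 5.98 in E11.5H, and in HOs they were at 4.42 and 3.93 in replicate 2 of the atrium-like and ventricle-like parts and at 0.41 to 1.01 in the other 4 libraries. The 8 skeletal muscle genes were at 3.52 and 3.70 in the same pair of HO libraries and at -3.80 to -3.14 in the other 4. In E11.5H they were at -2.82, -1.78 and 1.62 in atrial replicates 1 to 3 and at -3.37 to -2.27 in ventricles, so atrial replicate 3 was the highest embryonic library. In E11.5H the 6 epicardial genes were at 5.58 to 5.66 in atrial and 4.28 to 4.84 in ventricular libraries, and in HOs at 3.17 to 4.31 in atrium-like parts and at 1.29 to 6.10 in ventricle-like parts.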
